A study of Mus musculus with 4 samples.

Results

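The CatSper channel subunits considered here are 8 genes chosen by name, *Catsper1*, *Catsper2*, *Catsper3*, *Catsper4*, *Catsperb*, *Catsperd*, *Catsperg1* and *Catsperg2*, out of 25683 genes in a table of testis mRNA. The table holds 2 libraries from *Parp1* knockout mice (genotype label PARP1ko) and 2 libraries from control mice (genotype label WT). Knockout mice carried the 129S-*Parp1*tm1Zqw/J allele, in which a *neo* cassette was placed in exon 2 of *Parp1*, and the line had been crossed to C57Bl/J for several generations. The study used RNAseq of testis to examine which *Parp1* mRNA the knockout mice still make. The age of the mice and the number of animals behind each library are not given in the sources used here, so the p-values measure the spread between these libraries, which may be technical.

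The sample titles disagree with the genotype label in knockout testis: the titles read PARG29b, a *Parg* line, whereas PARP1ko is the genotype given, and the paper also speaks of *Parp1*. *Parp1*, the targeted gene, stood at 24.1 and 22.1 CPM (read counts scaled to library size by TMM) in knockout testis, against 86.4 and 86.0 CPM in control testis. Its mRNA was lower in both knockout libraries, with a log2 fold change of -1.90 (SE 0.10, n = 2 libraries per genotype) and an adjusted p of 0.013 (edgeR's quasi-likelihood F test, Benjamini-Hochberg adjusted over all genes tested). The adjusted p was 0.071 without control library 1 and 0.058 without control library 2. The headings of the table do not tell the knockout samples apart, so their libraries are called A (21821073 reads on exons) and B (18103863 reads), while control libraries 1 and 2 held 20449210 and 23503503 reads. Libraries A and B differed from each other by 0.551 (root mean square log2 difference over the genes tested) and the control libraries by 0.342. Over all genes 15 of 15834 passed the test (0.0947%), 2 of them higher (0.0126%) and 13 lower (0.0821%) in knockout testis.

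CatSper is the calcium channel of the sperm tail. It opens as the inside of the sperm cell becomes alkaline, and the calcium it admits drives the strong asymmetric beat called hyperactivation, which mouse sperm need to reach and penetrate the egg coat. CATSPER1, CATSPER2, CATSPER3 and CATSPER4 each supply a part of the pore, and in mice the loss of any of them leaves males infertile. The beta, gamma and delta subunits (*Catsperb*, the paralogs *Catsperg1* and *Catsperg2*, and *Catsperd*) are membrane proteins with large parts outside the cell that cover the pore. The genes are transcribed in meiotic and postmeiotic germ cells of the testis, well before the channel acts in sperm.

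All 8 CatSper genes were expressed at moderate to high level in both genotypes, and none of them passed the test for a difference between knockout and control testis. Each had 1003 to 6213 exon reads in every library, and all 8 passed the filter on low counts. With edgeR's quasi-likelihood test 0 of 8 had an adjusted p under 0.05, against 0.0947% of all genes tested (0.0126% higher and 0.0821% lower). Without adjustment, 0 of 8 had a p under 0.05, against 7.79% of all genes. The likelihood ratio test of edgeR, limma voom and DESeq2 called 0 of 8 as well. Log2 fold changes were above 0 for 5 genes and below 0 for 3, with a median of 0.066, beside a median of 0.0076 over all genes tested. The knockout and control libraries did not overlap in 2 of 8 (*Catsper1* and *Catsper4*, both higher in knockout testis), against 37.1% of all genes (17.9% higher and 19.2% lower).

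The level per length (TPM, the share of transcripts corrected for gene length, from the exon reads and the deposited exon lengths) orders the subunits. *Catsper2* was the highest, with a mean of 199 TPM over the 4 libraries, and *Catsper4* followed with 144 TPM. Their ranges over libraries did not overlap each other or the range of the next gene. *Catsper1*, *Catsperd* and *Catsper3* came next with means of 109.7, 107 and 105 TPM, and their ranges overlapped, so that their order is not resolved. *Catsperg2* averaged 73.2 TPM and *Catsperg1* 61.0 TPM, with overlapping ranges although *Catsperg2* was the higher in 4 of 4 libraries. *Catsperb* was the lowest with 35.3 TPM, and its range did not reach that of *Catsperg1*. Among all genes tested *Catsper2* stood above 93.9% in knockout and 93.8% in control testis by mean TPM, and *Catsperb* above 73% and 71.3%.

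**Figure D1:**
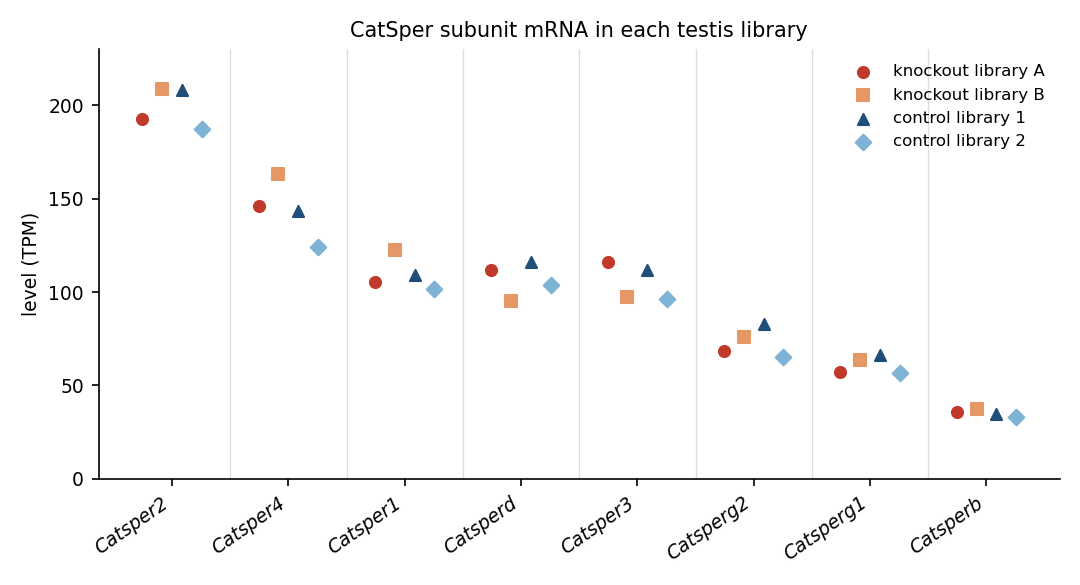
Level of each CatSper subunit mRNA (vertical axis, TPM, from 0) in knockout libraries A and B and control libraries 1 and 2, with 1 point per library and genes ordered by mean level. *Catsper2* (187 to 209 TPM) lies above every other subunit, *Catsperb* (32.9 to 37.6 TPM) below, and the points of the genotypes intermingle for 6 of the 8 genes.

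The order depends in part on the length that reads are divided by. The deposited exon length of *Catsperg1* is 5313 bases, while its longest annotated coding transcript has 3670 bases, and 7 of its 14 transcripts in GENCODE M21 are retained introns. For *Catsperg2* the lengths are 4531 and 3957 bases. With reads per kilobase of coding transcript, scaled to library size, *Catsperg1* averaged 38.6 and *Catsperg2* 36.6, which turns their order round. *Catsper3* (47.2) and *Catsperd* (47.0) also changed places, and the other 4 genes kept their rank. This alternative was chosen after the data were seen.

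The pore subunits were compared first. *Catsper1* (GRCm38 chromosome 19, 5335741 to 5344280, plus strand, 12 exons) encodes the subunit for which the channel was named. It had 113.5 and 106 CPM in knockout libraries A and B, against 103 and 97.1 CPM in control libraries 1 and 2. Both knockout libraries were above both control libraries, as in 17.9% of all genes tested. This gave a log2 fold change of 0.13 (SE 0.10, 95% interval -0.12 to 0.38, edgeR adjusted p = 0.873), so the difference was within the error of the test. In TPM the genotypes overlapped, at 105 and 122 in knockout and 109 and 102 in control testis.

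*Catsper2* (chromosome 2, 121392631 to 121413792, minus strand, 13 exons) has a start that overlaps *Pdia3*, a protein disulfide isomerase gene on the other strand, by 18 bases. Whether reads were counted by strand is not stated, and reads of the overlap cannot be told apart. *Catsper2* had 304 and 264 CPM in knockout libraries A and B, against 288 and 262 CPM in control libraries 1 and 2, and the groups overlapped. The fitted log2 fold change was 0.045 (SE 0.13, 95% interval -0.27 to 0.36, edgeR adjusted p = 0.979). *Pdia3* had a log2 fold change of 0.035 (edgeR adjusted p = 0.984).

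*Catsper3* (chromosome 13, 55784568 to 55808998, plus strand, 8 exons) had 77.9 CPM in knockout library A and 52.3 CPM in knockout library B, against 65.6 and 57.1 CPM in the control libraries. The knockout libraries lay on opposite sides of both controls. Its log2 fold change of 0.087 has the widest error of the 8 genes (SE 0.20, 95% interval -0.42 to 0.59, edgeR adjusted p = 0.971).

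*Catsper4* (chromosome 4, 134211970 to 134227383, minus strand, 11 exons) had the largest log2 fold change of the 8 genes. It had 147 and 131 CPM in knockout libraries A and B, against 126 and 111 CPM in the control libraries. Both knockout libraries were above both controls, in CPM and also in TPM, where they had 146 and 163 TPM against 143 and 124 TPM in control testis. The log2 fold change of 0.23 (SE 0.12, 95% interval -0.063 to 0.53, edgeR adjusted p = 0.763) did not pass the test. Its interval corresponds to 0.958 to 1.44 times the control level.

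Of the auxiliary subunits, *Catsperb* (chromosome 12, 101404653 to 101626009, plus strand, 27 exons) encodes the beta subunit. It had 97.5 and 81.6 CPM in knockout libraries A and B, against 82.6 and 79.0 CPM in the control libraries, with library B inside the range of the controls. Its log2 fold change was 0.15 (SE 0.12, 95% interval -0.15 to 0.45, edgeR adjusted p = 0.878). In TPM both knockout libraries (mean 36.8 TPM) stood above both control libraries (mean 33.8 TPM).

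*Catsperd* (chromosome 17, 56628143 to 56664456, plus strand, 22 exons) encodes the delta subunit, whose loss in mice also removes the channel from sperm. It had 141 CPM in knockout library A and 96.8 CPM in knockout library B, against 129 and 117 CPM in the control libraries. As with *Catsper3*, the knockout libraries fell on opposite sides of both controls. Its log2 fold change was -0.041 (SE 0.19, 95% interval -0.52 to 0.44, edgeR adjusted p = 0.986).

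*Catsperg1* and *Catsperg2* (chromosome 7, 29181321 to 29214035 and 29697219 to 29727032, both minus strand and 29 exons) are gamma subunit paralogs 483.2 kb apart. *Catsperg1* had 149 and 134 CPM in knockout libraries A and B, against 152 and 132 CPM in the control libraries, with a log2 fold change of -0.0043 (SE 0.12, 95% interval -0.31 to 0.30, edgeR adjusted p = 0.999). *Catsperg2* had 152 and 136 CPM in knockout libraries A and B, against 162 and 129 CPM in the control libraries, with a log2 fold change of -0.012 (SE 0.14, 95% interval -0.37 to 0.34, edgeR adjusted p = 0.997). In both genes the knockout values lay within the range of the controls. The sign of *Catsperg1* turned to plus with DESeq2 and with RLE scaling.

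The gamma paralogs share sequence, which bears on how well their reads can be assigned. Their coding sequences of 3453 and 3435 bases align over 3432 positions with 122 mismatches, an identity of 96.4%. Of the 31-base words of *Catsperg1*, 55.3% occur in *Catsperg2*, and of its 150-base words, the length of 1 read, 11.4% do. The most alike and the least alike windows of 90 coding bases are printed to show how far the likeness varies along the genes. These windows are shorter than 1 read. They were read from the GRCm38 genome on the minus strand, at coding positions 124 to 213 (chr7:29210702-29210791 in *Catsperg1* and chr7:29725257-29725346 in *Catsperg2*) and 1660 to 1749 (chr7:29195422-29195511 and chr7:29710018-29710107). Capitals mark the bases that differ between the paralogs, none in the first pair and 18 in the second.
Catsperg1 most alike: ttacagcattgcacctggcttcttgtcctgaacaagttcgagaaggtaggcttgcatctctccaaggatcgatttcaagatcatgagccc
Catsperg2 most alike: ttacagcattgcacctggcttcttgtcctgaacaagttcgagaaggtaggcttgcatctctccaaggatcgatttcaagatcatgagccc
Catsperg1 least alike: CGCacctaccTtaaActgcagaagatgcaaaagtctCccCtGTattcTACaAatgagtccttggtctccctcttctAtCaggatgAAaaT
Catsperg2 least alike: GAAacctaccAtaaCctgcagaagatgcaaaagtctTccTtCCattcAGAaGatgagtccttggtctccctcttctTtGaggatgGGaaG

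Read classes other than exon reads were used in the control libraries alone, because identical headings do not tie them to the exon reads of library A or B. Reads that map to 1 place in the genome made up 100% of the exon reads of the other 6 CatSper genes in both control libraries. In *Catsperg1* they made up 94.7% (95% Wilson interval 93.8 to 95.4%) in control library 1 and 93.9% (93.0 to 94.7%) in control library 2, and in *Catsperg2* 95.02% (94.2 to 95.7%) and 94.1% (93.2 to 94.8%). Such intervals cover counting error only. The level of *Catsperg2* over that of *Catsperg1* in TPM was 1.20 in both knockout libraries, against 1.25 and 1.15 in the control libraries. With unique reads only, the ratio in the control libraries was also 1.25 and 1.15. The summed level of both paralogs was 125 and 139.9 TPM in knockout testis, against 149 and 122 TPM in control testis. Knockout values lay between those of the controls for the ratio and for the sum, so no shift was detectable at this depth.

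**Figure D2:**
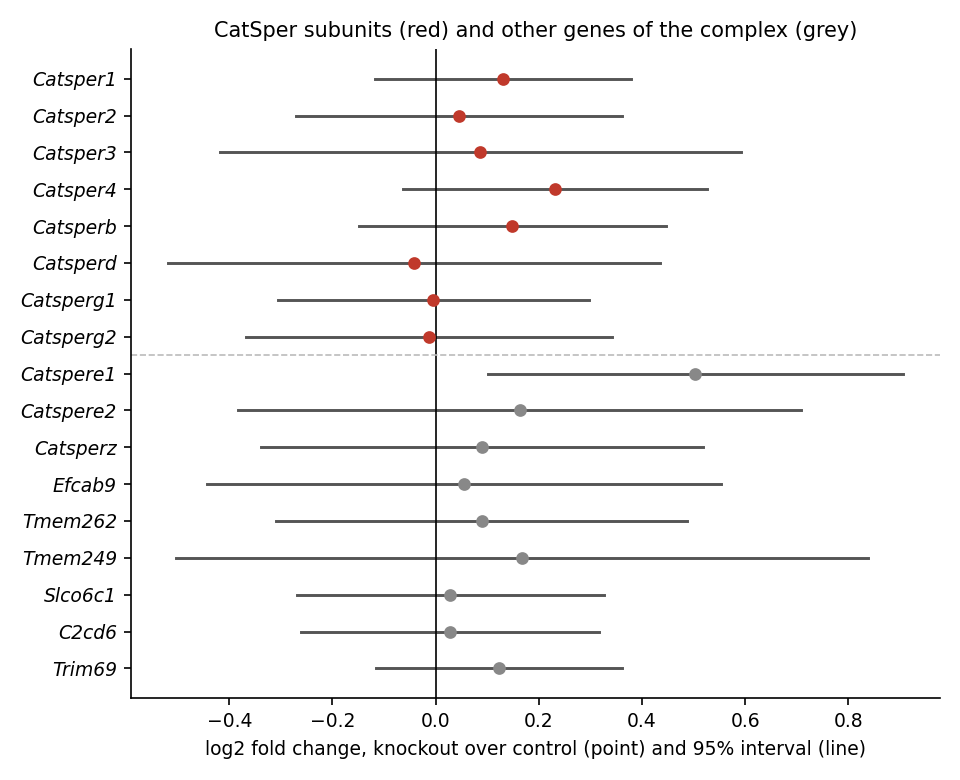
Log2 fold change of knockout over control testis (horizontal axis, points) with 95% intervals (lines) from edgeR's quasi-likelihood test, for the 8 CatSper subunits (red) above 9 other genes of the complex (grey). All 8 subunit intervals include 0, the highest point among them being *Catsper4* at 0.23, and the interval of *Catspere1* (0.10 to 0.91) does not.

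The sums over subunits showed no more than the single genes. *Catsper1* to *Catsper4* together had 560 and 591 TPM in knockout libraries A and B, against 572 and 509 TPM in the control libraries. The 4 auxiliary genes together had 273 and 273 TPM in knockout testis, against 299.7 and 259 TPM in control testis. In each sum at least 1 knockout library lay within the range of the controls. All 8 genes took up 0.110% and 0.106% of exon reads in knockout testis, against 0.112% and 0.0991% in control testis. The highest pore subunit over the lowest was 1.83 and 2.14 in knockout testis, against 1.90 and 1.95 in control testis.

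The subunits varied together from library to library more clearly than between genotypes. On the TMM scale knockout library A was above knockout library B in 8 of 8 genes, where B was above A in 50.7% of all genes tested, and control library 1 was above control library 2 in 8 of 8, against 49.4% of all genes. Control library 1 was also the higher in 9 of 9 other genes of the complex, 9 of 10 round spermatid markers (median 0.16) and 9 of 10 spermatocyte markers. It was the higher in 6 of 8 germ cell transcription regulators, 7 of 12 flagellar signalling genes and 6 of 10 other channels and transporters. In elongating spermatid markers it was the higher in 4 of 10 (median -0.033), and in spermatogonia markers in 3 of 9. Among somatic markers control library 1 was the higher in 3 of 8 for Sertoli cells and 0 of 7 for Leydig cells (median -0.33). For peritubular cells it was 0 of 6 (median -0.51), for macrophages 1 of 6 (median -0.52) and for endothelium 0 of 4 (median -0.74). For red blood cells it was 2 of 5. Knockout library B was above knockout library A in 2 of 9 other genes of the complex, 1 of 12 flagellar signalling genes and 1 of 8 germ cell transcription regulators. It was the higher in 3 of 10 spermatocyte markers, 5 of 10 other channels and transporters and 5 of 9 spermatogonia markers. The orders A over B and control library 1 over 2 held together in 8 of 8 subunits, against 26.6% of all genes tested. The median log2 difference from the control mean over the 8 genes was 0.19 in library A and -0.070 in library B, where the medians over all genes were -0.0068 and 0.0026. Library A was the highest of the 4 libraries in 6 of 8 subunits, against 29.1% of all genes. Control library 1 exceeded control library 2 by a median of 0.16. Without sign, the median difference was 0.18 between knockout libraries and 0.16 between control libraries, against 0.26 and 0.11 over all genes tested. The median log2 fold change without sign was 0.066, against 0.14 over all genes. Differences within a genotype were thus larger than the fold change for the subunits, and over all genes between the knockout libraries only. The fold change compares 2 libraries with 2, not single libraries.

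The order of A and B depends on the scale, because library B stands higher as a whole on the TPM scale. On log2(TPM + 1) library B was above library A in 6 of 8 subunits, while the median over all genes shifted by 0.27 the same way, and with library size alone B was above A in 4 of 8 with a shift of 0.19. Measured against the median of all genes, the subunits' median difference from the control mean was 0.20 in library A and -0.072 in library B with TMM scaling, and 0.17 and -0.051 on log2(TPM + 1). Control library 1 was above control library 2 in 8 of 8 subunits under TMM, RLE, upper quartile and library size scaling and on both TPM scales.

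**Figure D3:**
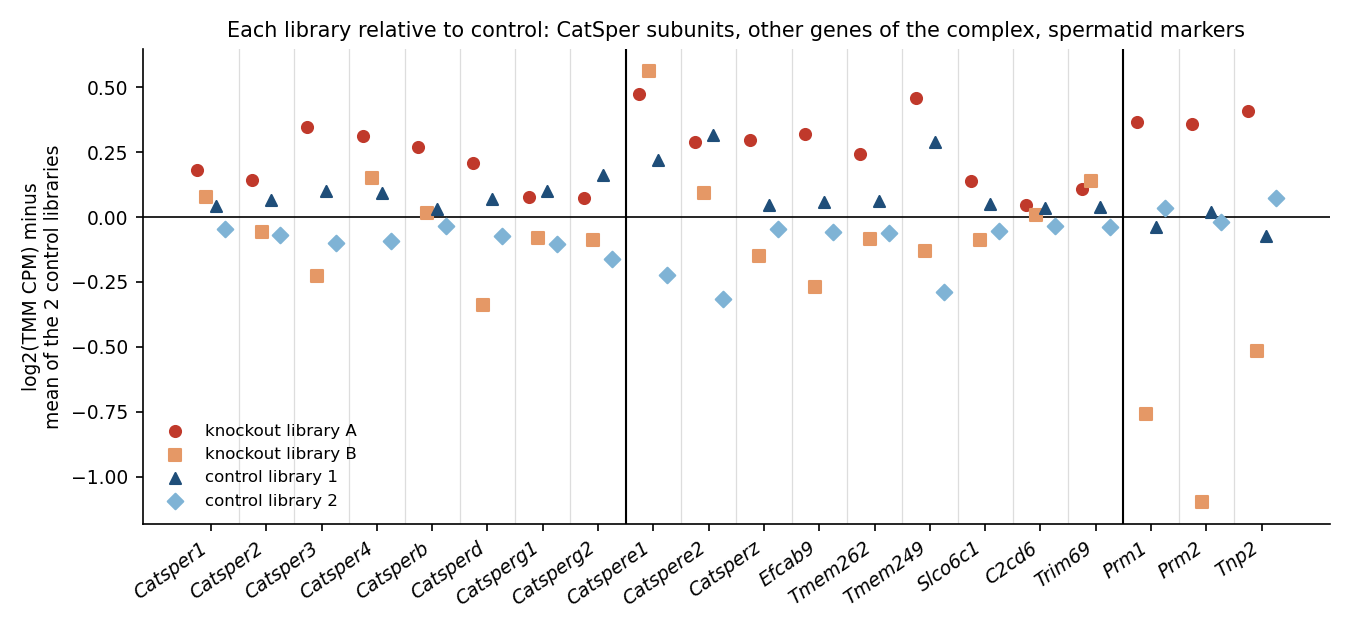
Difference of each library from the mean of the 2 control libraries (vertical axis, log2 of TMM CPM), 1 point per library, for the 8 CatSper subunits, 9 other genes of the complex and 3 elongating spermatid markers, separated by black lines. Knockout library A lies above knockout library B in all 8 subunits, by the widest margin in *Catsper3* and *Catsperd*, and the gap is larger in *Prm1*, *Prm2* and *Tnp2*.

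The gap between knockout libraries was unequal among subunits. Library B minus library A was -0.57 (log2) for *Catsper3* and -0.55 for *Catsperd*, while the other 6 ranged from -0.26 (*Catsperb*) to -0.10 (*Catsper1*). In consequence *Catsper4* over *Catsperd* in TPM was 1.31 in library A and 1.71 in library B, against 1.24 and 1.20 in the control libraries. *Catsper1* over *Catsper3* was 0.906 and 1.26 in knockout libraries A and B, against 0.979 and 1.06 in the control libraries. These ratios within a library do not depend on the scaling.

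Markers of spermatids and of Sertoli and Leydig cells also differed between knockout libraries A and B. Each of 10 elongating spermatid markers passed the filter and was lower in library B than in library A (10 of 10), with a median of -1.10 (log2). Their summed level was 85448 and 47700 TPM in knockout libraries A and B, against 72239 and 73920 TPM in the control libraries. *Prm2*, a protamine gene, had 7156 and 2605 CPM in knockout libraries A and B, against 5654 and 5509 CPM in the control libraries. The other protamine gene shown, *Prm1*, had 5141 and 2353 CPM in knockout testis, against 3884 and 4087 CPM in control testis, and *Tnp2*, a transition protein gene, had 4052 and 2135 CPM, against 2901 and 3211 CPM. All of *Prm1*, *Prm2* and *Tnp2* were called lower without library A, when 23.9% of all genes were called, and higher without library B, when 17% were. The 10 round spermatid markers were also lower in B than in A in 10 of 10, with a median of -0.45 and summed levels of 3692 and 3278 TPM in knockout testis, against 3203 and 2916 TPM in control testis. By contrast 7 of 8 Sertoli cell markers and 7 of 7 Leydig cell markers were higher in B than in A, with summed levels of 310 and 534 TPM and of 2457 and 8111 TPM in knockout testis, against 388 and 384 TPM and 3010 and 3746 TPM in control testis. Library B was also the higher in 5 of 6 peritubular and 5 of 6 macrophage markers, but in 2 of 4 endothelium and 0 of 5 red blood cell markers. The part of all these markers in the CatSper values was not tested. In whole testis fewer cells of a type and less RNA per cell cannot be told apart. Between genotypes 0 genes of these lists passed the test, and the median log2 fold change was -0.031 for elongating and 0.25 for round spermatid markers. Of 5 epididymis markers 1 passed the filter, with a summed level for the list of at most 0.0793 TPM in knockout and 2.49 TPM in control testis.

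Leaving out a knockout library shows how much the result for the CatSper genes rests on each of them. Without library A 1 of 8 was called, *Catsperd* at a log2 fold change of -0.34, when 23.9% of all genes were called. Without library B 4 of 8 were called (*Catsper3*, *Catsper4*, *Catsperb* and *Catsperd*, all higher in knockout testis), when 17% of all genes were called. In these fits the lone knockout library is assumed to vary like the controls. *Catsper3* and *Catsperd* had the opposite sign with library A alone (0.35 and 0.21) and with library B alone (-0.23 and -0.34).

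Reads on introns, which can come from unspliced or intron-retaining RNA, differed widely among the subunits in the control libraries. Their source was not tested. *Catsperg1* had 45.5% (95% Wilson interval 44.3 to 46.8%) of its gene reads on introns in control library 1 and 43.5% (42.2 to 44.8%) in control library 2. Its paralog *Catsperg2* had 17.2% (16.1 to 18.4%) and 15.2% (14.1 to 16.4%), well below *Catsperg1* in both libraries. *Catsperd* had 14.1% (12.9 to 15.4%) and 11.3% (10.2 to 12.4%). In the other 5 genes the share ranged from 2.10% to 10.8%, while introns held 5.87% and 5.59% of the gene reads of the control libraries as a whole. Reads across exon junctions were 65.1 and 67.8% of exon reads in *Catsper1*, 95.9 and 97.6% in *Catsper3* and 78.2 to 93.6% in the other 6 genes.

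Other genes of the CatSper complex were read from a list of 10, of which 9 are in the table and passed the filter. By edgeR's quasi-likelihood test 0 of 9 were called, against 0.0947% of all genes. Without adjustment, 1 of 9 had a p under 0.05, beside 7.79% of all genes. All 9 log2 fold changes were above 0, as were 8174 of the 15834 genes tested, with a median of 0.090 and a range of 0.027 to 0.50. The signs rest on single libraries, since 5 of 9 were below 0 without knockout library A and 5 of 9 without control library 2. The median difference of the 9 genes from the control mean was 0.29 in library A and -0.084 in library B. The likelihood ratio test, limma voom and DESeq2 called 0 of 9.

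*Catspere1*, listed under the name of the epsilon subunit, had the largest of these fold changes. It had 86.6 and 92.1 CPM in knockout libraries A and B, against 72.6 and 53.4 CPM in the control libraries. Both knockout libraries were above both controls, as in 17.9% of all genes tested, and the control libraries differed by more than the knockout libraries. Its log2 fold change was 0.50 (SE 0.16, 95% interval 0.10 to 0.91, edgeR adjusted p = 0.503). GENCODE M21 annotates *Catspere1* as an unprocessed pseudogene. *Catspere2*, also an epsilon gene, had 45.7 and 39.9 CPM in knockout testis, against 46.6 and 30.04 CPM in control testis, with a log2 fold change of 0.16 (SE 0.22, edgeR adjusted p = 0.939). *Catspere1* and *Catspere2* lie 2.61 and 2.40 Mb from *Parp1* on chromosome 1, so that the knockout and any difference of strain carried along with its allele cannot be told apart for them.

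*Catsperz*, the zeta subunit, and *Efcab9*, its calcium-binding partner, followed the pattern of *Catsper3* and *Catsperd*. *Catsperz* had 388 and 285 CPM in knockout libraries A and B, against 326 and 306 CPM in the control libraries, with a log2 fold change of 0.090 (SE 0.17, edgeR adjusted p = 0.962). *Efcab9* had 120.0 and 79.8 CPM in knockout testis, against 99.9 and 92.4 CPM in control testis, with a log2 fold change of 0.055 (SE 0.20, edgeR adjusted p = 0.984). In each gene library A was above and library B below both controls. The membrane proteins *Tmem249* and *Tmem262* had log2 fold changes of 0.17 and 0.089, and the organic anion transporter *Slco6c1* that is part of the complex had 0.029. *C2cd6*, which helps to bring the channel to the tail, had 0.027 and the ubiquitin ligase gene *Trim69* had 0.12. Library A was above and library B below both controls in *Tmem262* and *Slco6c1* too. *Tmem262* had 20.9 and 16.6 CPM in knockout libraries A and B, against 18.4 and 16.9 CPM in the control libraries. *Slco6c1* had 151 and 129 CPM in knockout testis, against 142 and 132 CPM in control testis. Only *Trim69* and *Catspere1* among the 9 were higher in library B than in library A. Without library A *Catspere1* (0.55) and *Efcab9* (-0.27) were called, when 23.9% of all genes were, and without library B *Catspere1* (0.46), *Catsperz* (0.30), *Efcab9* (0.32) and *Tmem249* (0.44) were called, when 17% of all genes were.

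None of the genes listed as acting beside the channel passed the test. Of 12 other sperm ion channels and transporters 10 were tested and 0 called, with a median log2 fold change of 0.045 and, for the most abundant, 0.014 in *Atp1a4* (the sperm sodium pump), 0.077 in *Slc26a8* (an anion transporter) and 0.20 in *Atp2b4* (a calcium pump). Their log2 fold changes ran from -0.52 to 0.21, with 6 above and 4 below 0. The median size without sign was 0.16, against 0.066 over the CatSper genes and 0.14 over all genes tested. Both knockout libraries were below both control libraries in 4 of 10, against 0 of 8 CatSper genes and 19.2% of all genes. They were above both control libraries in 2 of 10, against 2 of 8 CatSper genes and 17.9% of all genes. The values below 0, named after they were seen, were -0.52 in *P2rx2* (an ATP-gated channel gene, unadjusted p = 0.028, edgeR adjusted p = 0.535), -0.24 in *Hvcn1* (a proton channel gene), and -0.13 each in *Lrrc52* (a potassium channel subunit gene) and *Slc9c1* (a sperm sodium-proton exchanger gene). Of 12 genes of flagellar cyclic AMP and calcium signalling 0 were called, with a median of 0.078 and values of 0.031, 0.095 and 0.17 for the anchoring protein genes *Akap4* and *Akap3* and for *Ropn1l*. Of 8 germ cell transcription regulators 0 were called, with a median of 0.034 and values of 0.031, 0.037 and -0.039 for *Tcfl5*, *Rfx2* and *Tbpl1*. The signs of *Atp1a4* and *Akap4* turned with limma voom and with library size scaling alone. Leaving out library A brought calls for *Atp1a4* (-0.27), *Akap4* (-0.45), *P2rx2* (-0.80) and *Tbpl1* (-0.16), lower in knockout testis, and *Atp2b4* (0.35), higher. Leaving out library B brought calls for *Atp1a4* (0.26), *Akap4* (0.39), *Akap3* (0.22) and *Ropn1l* (0.29), all higher, and for *P2rx2* (-0.29), lower. In these fits 23.9% of all genes were called without library A and 17% without library B. Each list held 0 genes with an adjusted p under 0.05, against 0.0947% of all genes tested. At an unadjusted p under 0.05 the lists held 1, 0 and 0 genes, against 7.79% of all genes.

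The mean profile of the 8 subunits, centred on each gene's mean, was 0.17 and -0.10 (log2 CPM) in knockout libraries A and B, against 0.050 and -0.12 in control libraries 1 and 2. Of 10324 genes compared over these 4 libraries, *Prmt7*, an arginine methyltransferase gene, had the profile most like it, with a root mean square distance of 0.0091. *Styxl1* (0.011), *Tekt1* (0.012), a tektin of the flagellar axoneme, and *Rnf121* (0.015) were also among the nearest. With 4 libraries such likeness is a description only.

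Promoters were read because the levels of the subunits varied together across libraries. The RefSeq table for GRCm38.p6 matched 6 of 8 subunits (8 promoters), and *Catsper1* and *Catsperg2* were not matched. The 250 bases before each start were searched on both strands for 5 short motifs. The CREM and ATF motif TGACG occurred in 2 of 8 promoters, against 17.8% of 32851 promoters. These were *Catsper2*, whose window overlaps an exon of *Pdia3*, and the upstream one of a pair at *Catsperd*, which overlaps an exon of *Lonp1*. The longer palindrome TGACGTCA, which contains TGACG, occurred in 0 of 8, against 1.5%. The RFX motif GTTGCC occurred in 0 of 8, against 10.4%. TATAAA occurred in 1 of 8 (*Catsperg1*), against 12.4% of promoters. The motif CCAAT occurred in 2 of 8 (*Catsper2* and *Catsperb*), against 33.8%. The 2 windows that hold no annotated exon belong to *Catsper4*, the subunit with the largest log2 fold change, and *Catsperd* (its downstream start), a gene with a wide gap between the knockout libraries. They are chr4:134227384-134227633 (minus strand) and chr17:56627893-56628142 (plus strand), and hold none of the motifs, so no base is in capitals.
Catsper4 promoter: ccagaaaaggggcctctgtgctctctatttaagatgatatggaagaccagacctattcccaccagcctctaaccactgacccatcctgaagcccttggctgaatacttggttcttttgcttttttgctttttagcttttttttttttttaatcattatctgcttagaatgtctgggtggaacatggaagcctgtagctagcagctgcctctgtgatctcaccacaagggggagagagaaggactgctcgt
Catsperd promoter: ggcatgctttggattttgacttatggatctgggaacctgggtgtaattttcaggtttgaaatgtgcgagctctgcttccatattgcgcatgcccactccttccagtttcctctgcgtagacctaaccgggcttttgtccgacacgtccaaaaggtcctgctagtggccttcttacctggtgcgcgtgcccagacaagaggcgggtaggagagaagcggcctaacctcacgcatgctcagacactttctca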

How the data were processed

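Testis RNA was measured in 2 *Parp1* knockout and 2 control libraries, grouped by the genotype label. Per the labels and the paper's methods, the authors enriched poly(A) RNA, read both ends over 150 bp, trimmed the reads and mapped them with CLC Genomics Workbench 12.0 to GRCm38 (mm10). They deposited raw exon read counts per gene, which were used for all 4 libraries. Deposited counts of unique, intron, junction and gene reads were used in the control libraries only, since identical headings do not tie the knockout columns to each other. The authors also deposited TPM values. TPM was recomputed here from exon reads and exon lengths, contrary to the plan to use the deposited values, and differed from them by at most 7.1e-13% in the control libraries (13916 genes). Of 67 columns with values of single libraries, counted over all 4 libraries together, 52 were not used. The 6 columns of the authors' own comparison (fold changes and p-values) were not used either.

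The count tests ran under R 4.3.3 (edgeR 4.0.16, limma 3.58.1, DESeq2 1.42.0). After filterByExpr (minimum count 10) and TMM scaling, 15834 genes entered edgeR's quasi-likelihood test of knockout over control, and Benjamini-Hochberg adjusted p-values under 0.05 were called. The log2 CPM values of single libraries had a prior count of 2. The biological coefficient of variation was 15.3% at 18103863 to 23503503 exon reads per library. With 2 libraries per genotype no exact permutation test can give a two-sided p below 0.33. The fit was also run on simulated counts with 200 changed genes, drawn with the same spread for every gene. That run checked the fitting steps only and bears on no result given here.

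The members and the gene lists were chosen with earlier results of these data known. Named are all members, the genes of the complex in the table, *Parp1*, genes overlapping a member, in each list of channels, signalling genes, regulators and elongating spermatid markers the genes past the threshold or up to 3 with the highest mean log2 CPM, and the 5 genes of mean log2 CPM of at least 3 with the most similar profile, of which 1 is not reported here. Lists of other cell types are given by counts, medians or summed values with no single gene named, which departs from the rule. Those of spermatogonia, spermatocytes, peritubular cells, macrophages, endothelium and red blood cells held 0 genes past the threshold. Gene models came from GENCODE M21 and sequences from GRCm38 and RefSeq (GRCm38.p6), read with Python 3.11.15, Biopython 1.88 and pandas 2.3.3, and figures were drawn with matplotlib 3.10.9. Alternatives were other tests, scalings, filters, scales and lengths, and leaving out each library.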

Additional observations from a re-analysis of the deposited data

How the results depend on the processing

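The count of genes past the threshold, 15 in all, was 193 with DESeq2, 374 with the likelihood ratio test, 41 without TMM, 52 without a filter and 53 at an adjusted p of 0.1, and ranged from 8 to 3890 when each library was left out in turn (8 without control library 1, 8 without control library 2, 3890 without knockout library A and 2752 without knockout library B). The count of CatSper genes called stayed at 0 under every other test, scaling and filter, and ranged from 0 to 4 when a library was left out. Their median log2 fold change then ranged from -0.070 to 0.19. On log2(TPM + 1) and log2(TPM + 0.1) the median difference of library A from the control mean was 0.013 on both scales, where the median over all genes was -0.16 and -0.18. With the length of the longest coding transcript, an alternative chosen after seeing the data, *Catsper3*, *Catsperd*, *Catsperg1* and *Catsperg2* ranked 4, 5, 6 and 7 and the ratio of *Catsperg2* to *Catsperg1* was 0.947; it was 1.25 in control library 1 and 1.15 in control library 2 alone. Scaling without the 100 most abundant genes, also chosen after seeing the data, gave 0.20 and -0.071 for libraries A and B.

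Signs near 0 turned. *Catsperg1* had a log2 fold change of 0.00031 with DESeq2 and 0.00030 with RLE scaling. *Atp1a4*, *Akap4* and *Tnp2* had -0.012, -0.033 and -0.056 with limma voom and -0.024, -0.016 and -0.032 without TMM. Leaving out each library in turn, the log2 fold changes that changed sign had these ranges: *Catsper2* -0.057 to 0.14, *Catsper3* -0.23 to 0.35, *Catsperd* -0.34 to 0.21, *Catsperg1* -0.11 to 0.10, *Catsperg2* -0.17 to 0.16, *Catspere2* -0.12 to 0.51, *Catsperz* -0.15 to 0.30, *Efcab9* -0.27 to 0.32, *Tmem262* -0.082 to 0.25, *Tmem249* -0.15 to 0.48, *Slco6c1* -0.088 to 0.14, *C2cd6* -0.0095 to 0.062, *Pdia3* -0.057 to 0.12, *Atp1a4* -0.27 to 0.26, *Akap4* -0.45 to 0.39, *Akap3* -0.042 to 0.22, *Tcfl5* -0.081 to 0.14, *Tbpl1* -0.16 to 0.076, *Prm2* -1.10 to 0.36, *Prm1* -0.76 to 0.37 and *Tnp2* -0.52 to 0.41. The cause was not tested. No paired analysis was possible because the headings give both knockout libraries 1 number. Fits with unique reads were intended but not run, since identical headings do not tie those columns to the exon reads of the same knockout library. RPKM, computed from exon reads and exon lengths in place of the deposited values and added after seeing the data, left the 8 ranks as they were. With 2 libraries per genotype, the 95% intervals of the CatSper genes were -0.12 to 0.38 at the narrowest (*Catsper1*) and -0.42 to 0.59 at the widest (*Catsper3*). For each gene differences within its own interval are not resolved. The intervals reflect the spread between these libraries, which may be technical, and need not cover the spread between animals.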
